A study of Mus musculus with 9 samples.

Results

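The regions described here were the windows that hold the start of a Zfp zinc-finger gene. They were taken from a genome-wide table of GpC methylation, in which a higher percentage means that DNA was more accessible. A window was a member when it lay on chromosomes 1 to 19 and contained the 5′ end of a protein-coding gene whose GENCODE M21 symbol starts with Zfp (mouse build mm10), leaving out Zfp42 and Zfp281. There were 386 such genes. A gene was called clustered when another Zfp gene started within 100 kb (212 genes) and single otherwise (174 genes). The starts of 367 genes fell in windows with a value in all 9 libraries, and these made up 361 windows, 202 clustered and 159 single, out of 786533 autosomal windows with a value in every library. In 6 of the windows, a pair of Zfp genes shared the window. The windows with the start of any other protein-coding gene (18418) served as the comparison. Choosing the windows by gene name used no measured value.

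The libraries were NOMe-seq, in which a GpC methyltransferase marks the cytosines that nucleosomes and other proteins leave exposed before bisulfite conversion. The cells were female mouse embryonic stem cells from FVB/NJ dams crossed to CAST/EiJ sires, held undifferentiated at day 0 and then differentiated. They carried either the Nons control hairpin or a hairpin against Smarcc1, which encodes a scaffold subunit of BAF remodellers, delivered on day 2 with puromycin selection from day 3. Both arms were sampled on days 4, 5, 6 and 7, and all 8 of these libraries had undergone transduction and selection, which the day 0 cells had not. Each condition and day had 1 library, so no value has a replicate, and an SD below is over libraries or days. The 4 days are a time course and not repeats. Both alleles were merged, and the depth of each library is unknown because the table holds only percentages. The table does not measure Smarcc1 expression, so the knockdown itself could not be checked here, nor could the cell type, for which expression markers would be needed. The study's methods describe a scaling between libraries, but the deposited table does not appear equalised, since windows with no gene start had medians from 6.36% at Nons day 7 to 21.1% at Nons day 5. Those 2 libraries stood at the ends of the range for every kind of window.

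C2H2 zinc-finger genes, to which most Zfp genes belong, form the largest family of mammalian transcription factor genes. In their proteins pairs of cysteines and histidines hold a zinc ion and tandem fingers read DNA. Many carry a KRAB domain, which recruits the corepressor Trim28 and histone H3 lysine 9 methylation, and in embryonic stem cells these proteins are known for silencing retroelements and protecting imprints. KRAB genes have multiplied by local duplication and so lie in arrays. The Zfp name also covers unrelated proteins, such as the CCCH proteins that bind AU-rich messenger RNAs. Translation of the longest annotated coding sequence of each gene gave a median of 11 C2H2 fingers (quartiles 9 and 14) among the 212 clustered genes and 8 (quartiles 3 and 12) among the 174 single genes. No finger was found in 2 clustered and 18 single genes. The pattern counted was 2 cysteines separated by 2 residues, 12 further residues, and 2 histidines separated by 3 to 5.

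The start sequences of 6 members show what such promoters look like. Shown are the clustered and the single member with the highest and the lowest level over the 9 libraries, and the starts of Zfp57 and Zfp809. These are Zfp963 and Zfp759 (clustered), Zfpm1 and Zfp616 (single). Each run has 280 bases of GRCm38, 250 before the annotated start, the start and 29 after it, written 5′ to 3′ on the gene's strand. GC dinucleotides are in capitals, the sites that the GpC methyltransferase can mark, although a site followed by G cannot be told from CpG methylation. The sequences were read from the RefSeq copy of the genome.
Zfp963, chr8:69749941-69750220, - strand: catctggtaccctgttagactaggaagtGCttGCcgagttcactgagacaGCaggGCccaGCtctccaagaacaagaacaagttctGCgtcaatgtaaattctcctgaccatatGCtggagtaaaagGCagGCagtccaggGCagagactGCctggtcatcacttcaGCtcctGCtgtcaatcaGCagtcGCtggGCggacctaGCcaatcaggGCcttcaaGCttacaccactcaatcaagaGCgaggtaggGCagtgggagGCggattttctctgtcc
Zfp759, chr13:67121410-67121689, + strand: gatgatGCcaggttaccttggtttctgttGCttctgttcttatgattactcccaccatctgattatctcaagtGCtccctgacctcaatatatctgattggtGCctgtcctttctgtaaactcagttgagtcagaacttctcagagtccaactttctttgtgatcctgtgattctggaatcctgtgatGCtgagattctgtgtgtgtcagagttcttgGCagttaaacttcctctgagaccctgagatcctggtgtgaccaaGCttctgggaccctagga
Zfpm1, chr8:122281891-122282170, + strand: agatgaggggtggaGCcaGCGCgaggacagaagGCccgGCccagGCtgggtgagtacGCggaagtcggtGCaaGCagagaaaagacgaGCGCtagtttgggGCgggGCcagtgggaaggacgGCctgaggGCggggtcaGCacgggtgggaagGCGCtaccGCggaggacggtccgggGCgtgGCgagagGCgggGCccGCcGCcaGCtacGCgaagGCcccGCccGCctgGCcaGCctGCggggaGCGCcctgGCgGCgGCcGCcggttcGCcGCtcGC
Zfp616, chr11:74069705-74069984, + strand: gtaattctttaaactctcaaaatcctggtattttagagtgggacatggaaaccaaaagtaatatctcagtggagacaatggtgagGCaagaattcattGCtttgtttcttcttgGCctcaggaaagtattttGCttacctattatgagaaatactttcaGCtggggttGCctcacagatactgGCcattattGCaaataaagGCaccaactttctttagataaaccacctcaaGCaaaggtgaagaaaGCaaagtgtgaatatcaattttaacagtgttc
Zfp57, chr17:37000913-37001192, + strand: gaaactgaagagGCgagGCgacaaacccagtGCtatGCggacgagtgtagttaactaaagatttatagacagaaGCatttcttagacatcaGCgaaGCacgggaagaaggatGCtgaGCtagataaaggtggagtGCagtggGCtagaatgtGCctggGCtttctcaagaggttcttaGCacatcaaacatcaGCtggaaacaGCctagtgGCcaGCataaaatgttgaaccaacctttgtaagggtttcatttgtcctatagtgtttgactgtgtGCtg
Zfp809, chr9:22225464-22225743, + strand: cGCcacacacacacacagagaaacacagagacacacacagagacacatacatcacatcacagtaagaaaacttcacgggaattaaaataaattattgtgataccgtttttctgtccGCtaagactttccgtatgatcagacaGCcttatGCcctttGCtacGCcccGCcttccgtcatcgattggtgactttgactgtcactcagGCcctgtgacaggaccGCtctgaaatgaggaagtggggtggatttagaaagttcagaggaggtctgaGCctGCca
The 280 bases held 22 GC dinucleotides at Zfp963 and 7 at Zfp759, 42 at Zfpm1 and 11 at Zfp616, and 19 at Zfp57 and 11 at Zfp809. CpG dinucleotides numbered 6 at Zfp963, 35 at Zfpm1, 6 at Zfp57 and 10 at Zfp809, and 0 at both Zfp759 and Zfp616. The higher member of each class thus had more sites for the enzyme in its start region, and the deposited percentage is already taken over such sites.

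Zfp promoter windows were more accessible than other promoters in every library. Levels below are listed for day 0 first, then along days 4, 5, 6 and 7 of each arm. Zfp windows had a median level of 18.6% before differentiation, then 22.4, 34.4, 16.3 and 9.70% along the Nons days and 18.2, 30, 18.5 and 12.5% along the Smarcc1 knockdown days. Other protein-coding promoters had medians of 15% before differentiation, then 19.1, 30.5, 14.3 and 8.93% along the Nons days and 14.96, 26.2, 16.1 and 9.68% along the Smarcc1 knockdown days. The Zfp excess ran from 0.773 percentage points at Nons day 7 to 3.90 at Nons day 5, with a mean of 2.87 (SD 1.02 over 9 libraries). On a log2 scale the ratio of the medians averaged 0.23, from 0.12 at Nons day 7 to 0.37 at knockdown day 7. The order of the libraries depended on the scale and the windows. Without chromosome 7 the excess at Nons day 5 was 1.89 points, and after quantile normalization the highest was 3.73 at Nons day 4. Nons day 7 had the lowest excess on each of these scales. The distributions overlapped widely. At day 0 the quartiles were 12.3 and 25.3% for Zfp windows and 9.52 and 22.2% for other promoters, and 61.8% of Zfp windows lay above the median of the other promoters. That share ran from 53.5% at Nons day 7 to 67.3% at Nons day 4. The difference between kinds of window was a few percentage points, while the median of the same Zfp windows moved by more than that between libraries.

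**Figure D1:**
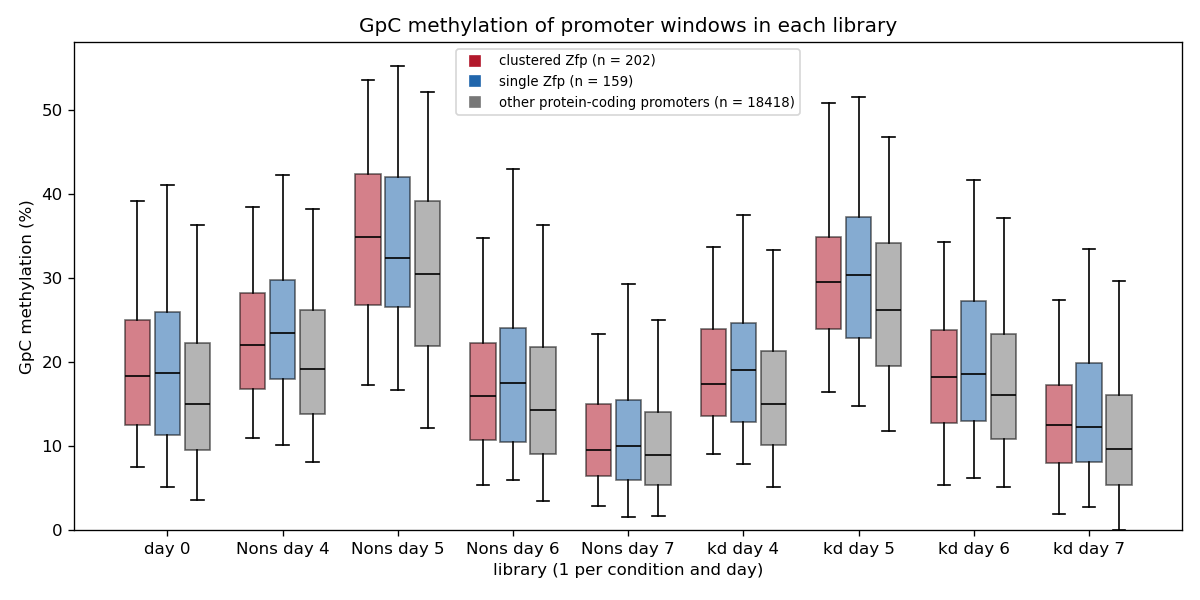
GpC methylation in percent (y axis) for clustered Zfp windows, single Zfp windows and other protein-coding promoter windows in each of the 9 libraries (x axis); lines are medians, boxes quartiles, and whiskers the lowest and highest 5% of windows. Both Zfp classes have a higher median than the other promoters in all 9 libraries, with a Zfp excess between 0.773 and 3.90 percentage points, and the boxes overlap.

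Counted window by window, 250 of 361 Zfp windows (69.3%) lay above the other promoters' median in at least 5 of the 9 libraries, against 50.7% of other promoters. Zfp windows above that median in 9 of 9 libraries numbered 27 (7.48%), and 4.79% of the other promoters met the same rule. They were 16 clustered and 11 single windows, among them Zfp963, Zfp110, Zfp459, Zfp143, Zfp91, Zfp664, Zfp511 and Zfpm1. There were 3 Zfp windows (0.831%) above it in 0 of 9 libraries, against 4.96% of other promoters. Those 3 were Zfp831 and Zfp352, both single, and the clustered Zfp982, and Zfp352 and Zfp982 are named here because the count is small. When each window was ranked among all protein-coding promoters in each library, the mean percentile over 9 libraries had a median of 58.5 for Zfp windows and 49.6 for other promoters. The ranks of individual windows, clustered and single alike, were noisy. Between pairs of libraries, the Spearman correlation of levels across the 361 Zfp windows had a median of 0.246 (range 0.0919 to 0.392, 36 pairs), and across other promoters 0.315. These values describe windows within libraries that share one protocol, and windows are not independent replicates.

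The accessible stretch was narrow. Windows centred within 1 kb of a Zfp start had day 0 medians of 19.6% (clustered, 144 windows) and 19.8% (single, 125 windows), while those centred 4 kb upstream had 12.1% in both classes and those 4 kb downstream 10.9 and 13.2%. Other protein-coding genes had 15.96% at the start, 11.7% upstream and 11.7% downstream at the same distances. From 8 kb outwards the Zfp neighbourhoods ran close to those of other genes, with 11.3% (clustered) and 11.7% (single) at 8 kb upstream against 11.6%. The 3′ ends of the genes did not show the excess. Median day 0 GpC methylation of windows with a gene end was 12.2% for clustered Zfp genes (193 windows), 11.2% for single Zfp genes (161 windows) and 11.5% for other protein-coding genes. Clustered Zfp gene ends exceeded the other gene ends in 5 of 9 libraries and single ones in 6 of 9, where both classes of start exceeded in 9 of 9.

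**Figure D2:**
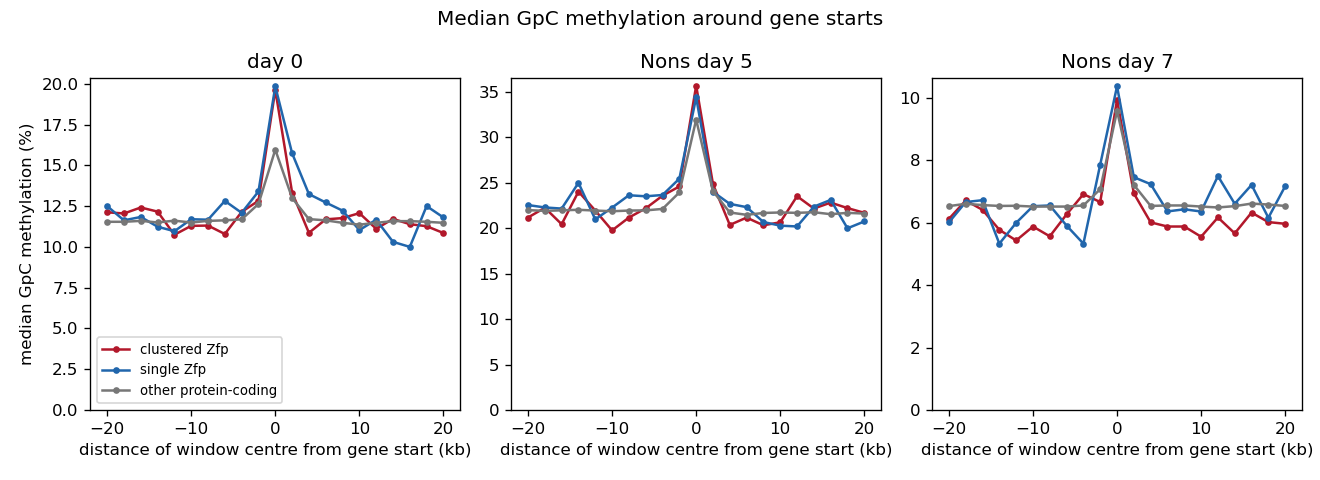
Median GpC methylation in percent (y axis) against the distance of the window centre from the gene start in kb, in bins of 2 kb (x axis), for clustered Zfp, single Zfp and other protein-coding genes at day 0, Nons day 5 and Nons day 7, each panel on its own scale from 0. Each line peaks at the start and the Zfp peaks are higher, 19.6 and 19.8% against 15.96% at day 0.

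Clustered and single Zfp windows were close to each other. Clustered medians were 18.4% before differentiation, then 22.1, 34.8, 15.996 and 9.56% along the Nons days and 17.4, 29.5, 18.2 and 12.5% along the Smarcc1 knockdown days. Single medians were 18.8% before differentiation, then 23.5, 32.4, 17.5 and 10% along the Nons days and 19.05, 30.4, 18.6 and 12.3% along the Smarcc1 knockdown days. Clustered minus single averaged -0.452 percentage points (SD 1.25 over 9 libraries) and was above 0 in 2 of 9 libraries, so the difference was smaller than its spread over libraries.

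The classes differed in base composition. Clustered windows had a median GC content of 46.0% and 18.9 CpG per kb, single windows 49.7% and 28.8 per kb, and other promoters 49.03% and 22.2 per kb. Median window lengths were 2600, 2295 and 2336 bp. Across the 361 Zfp windows the mean percentile of the level had a Spearman correlation of 0.372 with GC content and 0.490 with CpG density, against 0.500 and 0.741 across other promoters. With all protein-coding promoters divided into 5 equal bins of GC content, clustered minus single averaged 0.996 points (SD 1.23), above 0 in 9 of 9 libraries but by 0.051 and 0.072 points at Nons days 6 and 7. Without Nons day 5, where it was 3.98, the mean was 0.623 (SD 0.555). Bin by bin, clustered windows exceeded single ones in 9, 4, 8, 5 and 3 of 9 libraries from the GC-poorest to the GC-richest bin. With bins of CpG density the mean was 1.10 points (SD 0.949), above 0 in 9 of 9 libraries, and 0.817 (SD 0.443) without Nons day 5. The comparison between classes also turned positive with composition left free, to 0.161 points with a cluster distance of 50 kb and 0.754 among windows without another gene start. Over all 9 libraries, the means within GC bins, at 50 kb (SD 1.29) and among windows without another gene start (SD 1.51) were below their spread. The mean within CpG density bins was above its spread. With Nons day 5 left out, the means within GC and within CpG density bins were both above theirs. Other settings gave means below 0 that were larger than their spread. A cluster distance of 200 kb gave -1.64 points (SD 0.959, below 0 in 9 of 9 libraries). Comparison within chromosomes gave -1.31 (SD 1.02, below 0 in 8 of 9). Means over windows in place of medians gave -0.99995 (SD 0.725, below 0 in 8 of 9). The sign thus depended on the setting, so no order of the classes could be read. The excess over other promoters was 3.12 points within GC bins and 2.14 within CpG density bins, each above 0 in 9 of 9 libraries. At Nons day 7 it was 0.861 and 0.116 points.

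In percentile, both Zfp classes had higher medians than other promoters in 4 of the 5 bins of CpG density. In the bin with the fewest CpGs (0.459 to 8.11 per kb), the median of the mean percentile was 40.2 for 19 clustered windows, 37.6 for 12 single windows and 30.4 for 3725 other promoters. In the next bin (8.11 to 16.4 per kb) it was 55.3 for 65 clustered windows, 45.4 for 28 single windows and 37.1 for the others. In the third bin (16.4 to 28.5 per kb) it was 60.4, 56.6 and 52.9. In the fourth bin (28.5 to 43.6 per kb) the 3 medians were 61.0, 60.5 and 61.6, and each Zfp class was above the other promoters in 4 of 9 libraries. At the CpG-rich end (above 43.6 per kb) they were 71.0 for 14 clustered windows, 71.2 for 46 single windows and 66.7 for other promoters. In percentage points at day 0, clustered and single windows exceeded other promoters most at the CpG-rich end, with 27.1 and 25.4% against 21.4%, where the CpG-poorest bin had 14.6 and 10.9% against 10.8%. This did not hold at Nons day 5. There the bin of 8.11 to 16.4 per kb had 32.3 and 28.1% against 24.2%, and the CpG-rich end 43.6 and 40.04% against 38.8%. From the CpG-poorest to the CpG-richest bin, clustered windows were above other promoters in 9, 9, 9, 4 and 5 of 9 libraries. Single windows were above them in 9, 9, 8, 4 and 7. The values for 12 to 19 windows rest on few members.

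**Figure D3:**
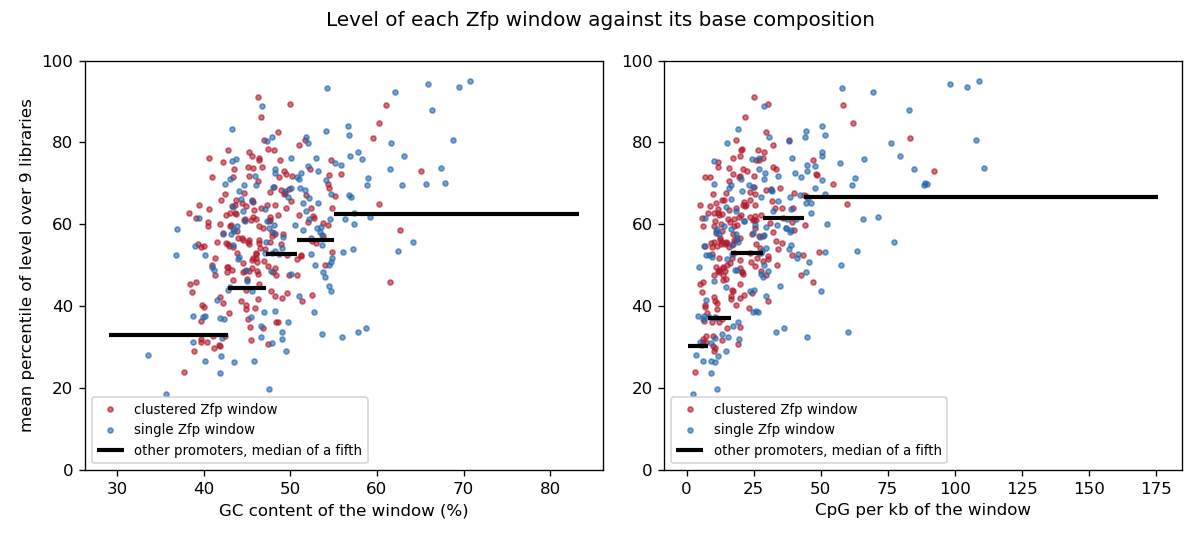
Mean percentile of the level over 9 libraries (y axis) for each clustered and single Zfp window against its GC content in percent (left) and CpG per kb (right); black bars are the medians of other protein-coding promoters in 5 equal bins. Most Zfp points on the left of each panel lie above the bars, and in the fourth CpG bin the Zfp medians of 61.0 and 60.5 meet the bar at 61.6.

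Letters that match known promoter motifs were counted on both strands in the 300 bases around each start (250 before it, the start and 49 after). The ETS motif, CCGGAAG, was in 21.7% of 212 clustered and 21.3% of 174 single Zfp promoters, against 10.8% of 20421 other protein-coding promoters and 11.03% of all. The NRF1 motif, CGCATGCG, was in 7.08% of clustered, 2.87% of single and 2.27% of other promoters. The YY1 motif, GCCATNTT, was in 10.4, 9.77 and 6.09%, and the CRE, TGACGTCA, in 4.72, 2.87 and 2.40%. The CCAAT box, searched as ATTGG, was in 47.6, 40.8 and 38.5%. The GC box, GGGCGG, ran the other way for the clustered class, with 32.5% against 50.6% of single and 43.8% of other promoters. The TATA box, TATAAA, was in 7.08% of clustered, 8.05% of single and 12.8% of other promoters. Among all protein-coding promoters the shares were 2.33% for NRF1, 6.16% for YY1, 2.43% for the CRE, 38.6% for the CCAAT box, 43.7% for the GC box and 12.7% for the TATA box. None of these motifs contains another of the list, although they may overlap by position. Of the 6 sequences printed above, Zfp963 held a CCAAT and a GC box, Zfp759 and Zfp809 a CCAAT box and Zfpm1 a GC box. Zfp57 held the letters of the TATA box only on the opposite strand and far before the start. Zfp616 held none of the 7. Neighbouring Zfp genes may be duplicates of each other, which was not checked, so matches within an array may share ancestry and not be independent.

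The arrays were examined separately. Runs of Zfp starts with gaps of at most 100 kb numbered 52, of which 13 held at least 5 windows and 108 windows in all. Chromosome 7 held 89 Zfp windows, 72 of them clustered. In 4 of the 13 runs the median exceeded that of other promoters in 9 of 9 libraries, and the remaining 9 did so in 6 to 8 libraries. No such count was made for runs of other promoters, so these counts have no background share. The highest was a run of 5 windows from Zfp329 to Zfp446 (chromosome 7, starts from 12818858 to 12977848), with a median percentile of 73.4. Its windows had a median of 19.1% before differentiation, then 36.04, 47.2, 24.4 and 9.52% along the Nons days and 23.2, 31.01, 19.4 and 17.2% along the Smarcc1 knockdown days. Zfp110, which encodes a protein known to bind the neurotrophin receptor p75, was its highest member (82.6), and Zfp324 its lowest (55.9). The other runs above in 9 of 9 libraries were Zfp768 to Zfp689 on chromosome 7 (median percentile 68.6), Zfp560 to Zfp846 on chromosome 9 (61.9) and Zfp677 to Zfp229 on chromosome 17 (59.5).

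The largest run, 23 windows from Zfp712 to Zfp273 on chromosome 13 (starts from 67061170 to 67813740), had a median percentile of 56.8 and was above other promoters in 7 of 9 libraries. It ranged from Zfp459 at 78.3 to Zfp759 at 23.8, and 14 of its 23 windows were above 50. The median over all 361 Zfp windows was 58.5, so most Zfp windows lay above 50 too. Another broad run, 14 windows from Zfp84 to Zfp146 on chromosome 7, ran from Zfp260 at 80.5 to Zfp30 at 30.8, with 13 windows above 50. On chromosome 8 a run of 5 windows (Zfp868 to Zfp866) held both Zfp963 at 91.1 and Zfp869 at 31.7. The run from Zfp628 to Zfp580 (chromosome 7) had Zfp524 at 75.8 and Zfp865 at 50.1. Zfp871 to Zfp563 (chromosome 17) ran from Zfp763 at 76.2 to Zfp811 at 43.8, and Zfp180 to Zfp94 (chromosome 7) from Zfp94 at 78.1 to Zfp111 at 30.4. Zfp786 to Zfp746 (chromosome 6) ran from Zfp746 at 81.0 to Zfp777 at 47.7. The lowest medians were 51.7 for Zfp354c to Zfp354b on chromosome 11 (Zfp879 at 63.9 and Zfp354c at 37.0) and 47.8 for Zfp607b to Zfp850 on chromosome 7 (Zfp60 at 65.7 and Zfp607a at 38.3). The range within most of the runs was wider than the range of the medians of the 13 runs, from 47.8 to 73.4. Medians vary less than individual windows do, so this does not show whether runs differ.

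**Figure D4:**
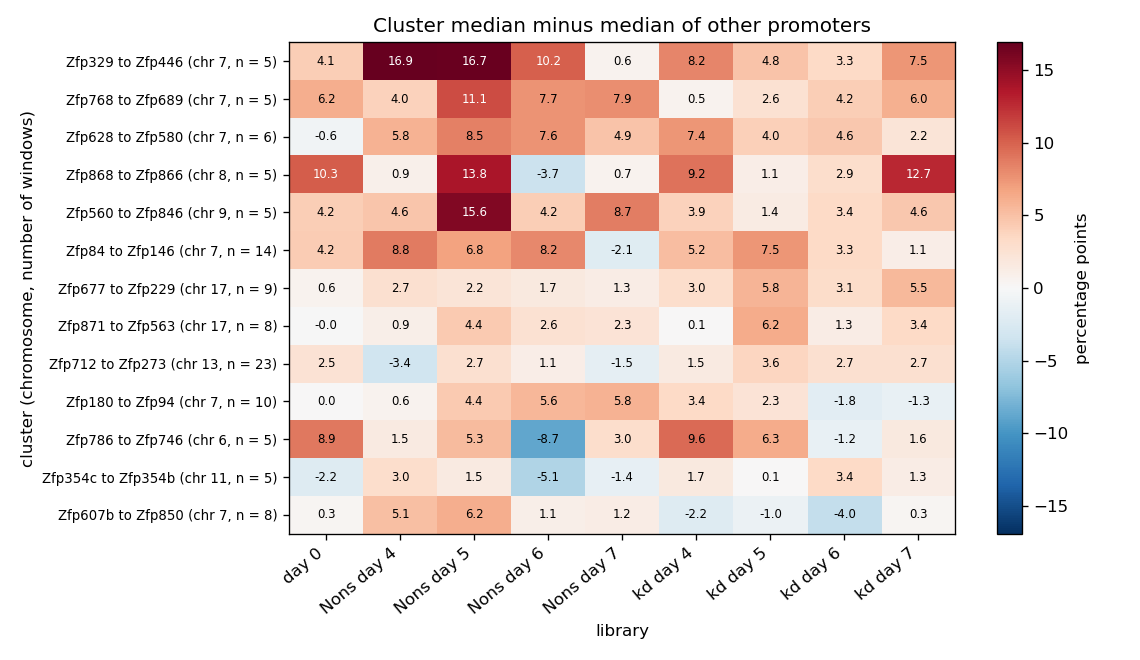
Median GpC methylation of each of 13 Zfp runs (rows, with chromosome and number of windows) minus the median of other protein-coding promoters in the same library (columns), in percentage points. The top row, Zfp329 to Zfp446, reaches 16.9 points at Nons day 4 and 16.7 at Nons day 5, and 4 rows are above 0 in all 9 libraries.

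The most accessible members were Zfpm1, Zfp91, Zfp664, Zfp143 and Zfp687, all of the single class. Zfpm1 encodes FOG1, a cofactor of GATA factors in blood cell development. Its window (chr8:122281448-122283086) had 76.9% before differentiation, then 40.7, 55.9, 76.9 and 20% along the Nons days and 48.6, 54.7, 30 and 20.8% along the Smarcc1 knockdown days. The mean percentile was 95.03, with all libraries between 85.5 and 100. Zfp91, a ubiquitin ligase gene that shares its window (chr19:12794781-12796693) with the start of Lpxn, had 40.5% before differentiation, then 44.05, 38.1, 35.7 and 28.9% along the Nons days and 51.9, 52.2, 36.4 and 37.5% along the Smarcc1 knockdown days. Its values moved less between libraries than those of Zfpm1, and its mean percentile was 94.3. Zfp143 encodes a promoter-bound activator, and its window (chr7:110060994-110062879) also holds the start of AA474408. It had 67.4% before differentiation, then 40.3, 46.3, 51.4 and 24.2% along the Nons days and 25, 53.5, 31.2 and 24.1% along the Smarcc1 knockdown days, a mean percentile of 93.4. Zfp664 (chr5:124862044-124863856, with the start of Ccdc92) averaged the percentile 93.6, and Zfp687 (chr3:95014944-95016684, with the start of 4930481B07Rik) 92.3. Zfp687 was above the other promoters' median in 8 of 9 libraries, with 9.38% in the knockdown at day 7. Among clustered members the highest was Zfp963 (chr8:69748897-69751119), with 48.9% before differentiation, then 30.3, 49.1, 40.4 and 25.5% along the Nons days and 24.2, 44.9, 27.5 and 25.9% along the Smarcc1 knockdown days, a mean percentile of 91.1. These 6 windows had GC contents of 70.8% (Zfpm1), 65.9% (Zfp91), 69.4% (Zfp664), 54.2% (Zfp143), 62.1% (Zfp687) and 46.2% (Zfp963), so the highest clustered window was also the least GC-rich of them. Its level stood beside 25.2 CpG per kb, where Zfpm1 had 109.

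The least accessible members were Zfp616, Zfp831, Zfp781, Zfp759 and Zfp970. Zfp616 (chr11:74068290-74071802) had 5.13% before differentiation, then 13.01, 20.8, 8.86 and 9.02% along the Nons days and 7.89, 14.9, 5.08 and 2.70% along the Smarcc1 knockdown days. Its mean percentile was 18.6, and its window had a GC content of 35.7% and 2.28 CpG per kb. Zfp831 (chr2:174641738-174644231) had 5.56% before differentiation, then 8.33, 21.4, 12.5 and 0% along the Nons days and 6.58, 15.4, 12 and 8.82% along the Smarcc1 knockdown days, a mean percentile of 19.8, and was not above the other promoters' median in any of the 9 libraries. The lowest clustered member, Zfp759 (chr13:67119478-67123532), had 11.4% before differentiation, then 11.3, 15.3, 10.6 and 5% along the Nons days and 8.79, 27.6, 6.38 and 4.84% along the Smarcc1 knockdown days. Its mean percentile was 23.8, with 3.21 CpG per kb. Zfp970 averaged 26.4. Zfp781 averaged 23.7 in a window of 13351 bp, far longer than the median, so its percentage covers much more than a start. At the knockdown's day 5, Zfp781 reached 36.1%, above the other promoters' median, and at day 0 it had 2.56%.

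The members with known roles were described from lists of such genes. The repressors of retroelements and guardians of imprints were Zfp57, Zfp445, Zfp568, Zfp708, Zfp809, Zfp819 and Zfp932. Their mean percentiles ran from 29.1 to 69.6 with a median of 57.2, and 6 of 7 were above 50. The median over all 361 Zfp windows was 58.5, so most Zfp windows lay above 50 too. Zfp57 maintains DNA methylation at imprinting control regions. Its window (chr17:37000024-37002766) had 28.6% before differentiation, then 29.5, 28.4, 27.9 and 6.03% along the Nons days and 22.9, 35.04, 20.95 and 14.8% along the Smarcc1 knockdown days, so Nons day 7 was the lowest library and knockdown day 5 the highest. Zfp445, which acts on imprints too, had 22.7% before differentiation, then 23.4, 18.6, 31.7 and 4.76% along the Nons days and 14.3, 35.5, 14.3 and 16.9% along the Smarcc1 knockdown days. Its mean percentile was 57.2, with a range over libraries from 16.4 to 91.6. Zfp809 encodes the protein that recognises the primer binding site of murine leukaemia virus. Its window (chr9:22222700-22225842) had 14.1% before differentiation, then 34.1, 49.4, 14.1 and 11.6% along the Nons days and 14.7, 16.2, 16.4 and 18.97% along the Smarcc1 knockdown days. Nons exceeded the knockdown at days 4 and 5 and lay below it at days 6 and 7. Zfp568, a repressor of a placental Igf2 transcript, averaged the percentile 66.9. Zfp819 averaged 50.9 and Zfp932, whose window also holds the start of 1010001B22Rik, 55.6. Zfp708, which represses a family of retroelements, was the exception at 29.1, with 1 of 9 libraries above the other promoters' median.

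Among the CCCH genes, whose proteins promote decay of AU-rich messenger RNAs, Zfp36 averaged the percentile 68.4 and Zfp36l2 69.9, while Zfp36l1 lacked a value in 1 library. Zfp36l2 (chr17:84187067-84188806) had 12.5% before differentiation, then 54.9, 55.2, 12.5 and 42.1% along the Nons days and 26.9, 26.8, 14.9 and 14.3% along the Smarcc1 knockdown days. Its values at Nons days 4, 5 and 7 stood far above those at day 0 and Nons day 6. Of the GATA cofactors, Zfpm2 averaged 53.3 where Zfpm1 averaged 95.03. The developmental regulators Zfp423, Zfp462, Zfp503, Zfp521, Zfp536 and Zfp609 ran from 48.4 (Zfp503) to 70.1 (Zfp423), and 5 of 6 were above 50. Zfp423, known from cerebellar and adipocyte development, had values from 0% at Nons day 6 to 58.8% at knockdown day 6. Of 10 genes for broadly used proteins, 9 were above 50, with a median of 59.2. They included Zfp622 (75.1), known from ribosome maturation, Zfp830 (71.0), a splicing factor gene, Zfp598 (62.9), Zfp335 (55.6), Zfp207 (54.9), which acts in spindle assembly, Zfp148 (54.2) and Zfp384 (50.9). The exception was Zfp217 at 37.3, with 0% at day 0. The median over all 361 members was 58.5, so none of these medians except those of the 2 CCCH genes (69.1) and the 2 GATA cofactors (74.2) stood more than 2 percentile points from it. With that median most Zfp windows lay above 50, so the counts above 50 do not set a list apart.

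Members that share the window with the start of another gene were higher. Other promoters were not split in this way, so it is not known whether this is particular to Zfp windows. The 69 such windows had a median percentile of 64.0 and a day 0 median of 19.6%, and the 292 windows without another start had 57.6 and 18.5%. With the shared windows left out on the Zfp side only, the excess over all other promoters was 2.23 points. It was above 0 in 9 of 9 libraries but by 0.083 points at Nons day 7. By number of fingers, the median percentile was 59.0 for 17 windows of genes with no finger, 63.7 for 67 with 1 to 5 fingers, 58.5 for 132 with 6 to 11 and 56.6 for 145 with 12 or more. Clustered windows made up 2, 16, 81 and 103 of these, so finger number and clustering moved together.

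During differentiation of the Nons cells, Zfp windows rose and fell with the rest of the genome. The comparison asks how Zfp promoters changed after exit from pluripotency, and all 4 differences share the day 0 library. Against day 0, the median difference of Zfp windows moved along days 4 to 7 as 3.51, 14.2, -1.49 and -7.36 points. Other promoters had 3.80, 13.6, -0.573 and -5.67 points. At day 5, 88.6% of Zfp windows and 87.0% of other promoters were above their day 0 value, and at day 7, 78.4 and 73.7% were below it. After quantile normalization, which gives all libraries the same distribution over all windows, Zfp windows had 2.38, 1.78, -0.12 and -0.96 points and other promoters 1.86, 1.72, 0.50 and 0.21. Clustered windows, as deposited, had 2.64, 14.5, -1.64 and -7.62 points and single windows 4.26, 13.5, -1.44 and -7.00. The Zfp change minus that of other promoters averaged -0.575 points (SD 0.969 over 4 days), with 1 of 4 days above 0, which is smaller than the spread between days. On the log2 scale of medians, the same difference averaged -0.14 (SD 0.046 over 4 days). It was below 0 on 4 of 4 days, from -0.08 at day 4 to -0.19 at day 7. That mean was larger than its spread between days, although the 4 values share the day 0 library. At day 7 the Zfp excess was the smallest of any library.

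As deposited, Zfp windows were lower in the Smarcc1 knockdown than in Nons on days 4 and 5 and higher on days 6 and 7, each in a single pair of libraries, but the direction on the late days turned with the scaling. The median difference, knockdown minus Nons, moved along days 4 to 7 as -3.62, -4.00, 1.41 and 1.91 points. Other promoters had -4.02, -3.45, 1.63 and 0.748. Windows with no gene start had -2.77, -1.01, 1.50 and 0.654, so the sign was shared across the autosomes. After quantile normalization the Zfp medians were -0.54, -0.63, 0.15 and -0.46 points and those of other promoters -1.24, -0.78, 0.23 and -0.63. With each library centred on its autosomal median they were -0.78, -2.99, -0.15 and 1.18 for Zfp windows, so day 6 or day 7 changed sign and days 4 and 5 did not. Clustered windows, as deposited, had -3.77, -3.59, 1.14 and 1.81 points and single windows -3.60, -4.67, 1.73 and 2.20. The Zfp difference minus that of other promoters averaged 0.199 points (SD 0.753 over 4 days), above 0 on 2 of 4 days, and -0.123 without day 7. On the log2 scale of medians it averaged 0.08 and was above 0 on 4 of 4 days, from 0.01 at day 6 to 0.25 at day 7. Both means were smaller than their spread between days (0.753 points and 0.11).

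Each window was tested with limma on the percent scale, over 8 libraries with the day as a block, across all 786533 windows. No Zfp window passed an adjusted p of 0.05 (smallest adjusted p 0.995 by limma with Benjamini-Hochberg adjustment), nor did any window in the table (0%). At an unadjusted limma p under 0.05, 36 Zfp windows (9.97%) were lower in the knockdown and 13 (3.60%) higher. Over all windows these shares were 2.66% lower and 1.59% higher, and over other protein-coding promoters 7.62% lower and 2.87% higher. Clustered windows numbered 26 lower (12.9%) and 5 higher (2.48%) and single windows 10 lower (6.29%) and 8 higher (5.03%). The difference between the classes was not tested. Below Nons on 4 of 4 days were 28 Zfp windows (7.76%), against 6.82% of all windows and 8.35% of other promoters. Above Nons on 4 of 4 days were 16 (4.43%), against 4.95% of all windows and 3.83% of other promoters. The lower group held 19 clustered (9.41%) and 9 single windows (5.66%) and the higher group 6 (2.97%) and 10 (6.29%). For the sign over 4 days, the shares of all Zfp windows lay near those of other promoters.

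The members with the largest mean differences among those with the same sign on 4 days are given as values, since none passed the test. Each of these 10 kept its sign on 4 of 4 days after quantile normalization. They were chosen from the same values for that sign and for size, so this is no independent support. Zfp367 (chr13:64152331-64153830, with the start of Gm47513) had 78.3, 41.6, 38.5 and 77.8% along the Nons days and 24.4, 36.1, 18.8 and 5.71% along the Smarcc1 knockdown days, a mean difference of -37.8 points (SD 30.6 over 4 days). It had 81.8% at day 0, and its high Nons values at days 4 and 7 set most of that mean. Zfp41 (chr15:75615364-75616936) had 36.4, 59.2, 15.4 and 34.2% along the Nons days and 8.57, 36.4, 8.70 and 20% along the Smarcc1 knockdown days, a mean of -17.9 (SD 9.34). Zfp511 (chr7:140035205-140037250, with the start of Tubgcp2) had 41.9, 52.8, 52 and 18.5% along the Nons days and 30.1, 35.7, 18.6 and 12.99% along the Smarcc1 knockdown days, a mean of -17.0 (SD 11.9). At Zfp367 every knockdown value lay below every Nons value, while at Zfp41 and Zfp511 the ranges of the arms overlapped. Zfp777 and Zfp110, both clustered, had means of -13.9 and -13.0 points. Zfp110 had 36.04, 54.1, 26.2 and 23.5% along the Nons days and 23.2, 28.8, 19.4 and 16.7% along the Smarcc1 knockdown days.

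In the other direction stood Zfp598, Zfp97, Zfp507, Zfp512b and Zfp964. Zfp598 encodes the ubiquitin ligase that senses collided ribosomes. Its window (chr17:24669584-24671615) had 20.95, 28.1, 2.56 and 0% along the Nons days and 35.7, 39.8, 34.4 and 23.4% along the Smarcc1 knockdown days, a mean difference of 20.4 points (SD 9.07). The knockdown values of days 4 to 6 exceeded each Nons value, and that of day 7 did not. At day 0 it had 38.6%, so the Nons values at days 6 and 7 were the low ones. Zfp507 (chr7:35801244-35803333, with the start of E130304I02Rik) had 26.1, 36.8, 10.1 and 7.50% along the Nons days and 36.6, 56.6, 22.95 and 19.4% along the Smarcc1 knockdown days, a mean of 13.8 (SD 4.17). Zfp512b, which shares its window with the start of Prpf6, had a mean of 11.01 and Zfp964 a mean of 10.9. Zfp97 had a mean of 15.7 (SD 16.9) in a window of 15569 bp, and 52% at knockdown day 5 set most of it. Of the role lists, no repressor was below Nons on 4 of 4 days and 1 of 7, Zfp819, was above on 4 of 4. Among the 10 broadly used genes, Zfp598 and Zfp91 were above on 4 of 4 and none was below. Over all Zfp windows 4.43% were above on 4 of 4 days and 7.76% below, and over other promoters 3.83 and 8.35%. Lists this short cannot be told apart from those shares.

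**Figure D5:**
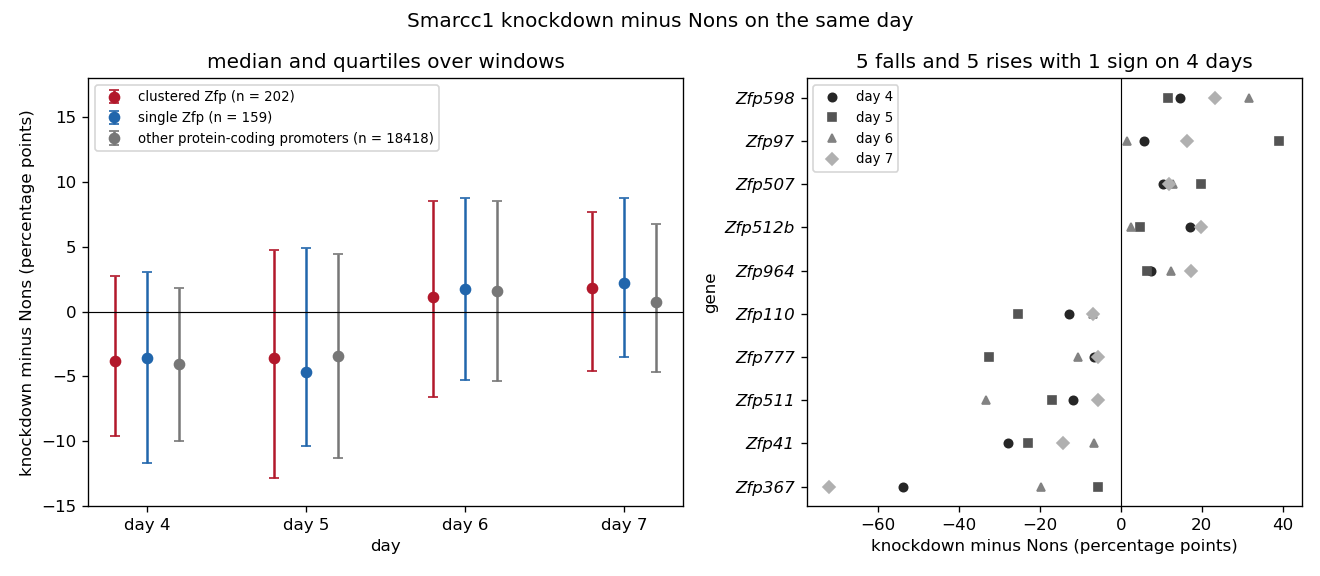
Left, Smarcc1 knockdown minus Nons on the same day in percentage points (y axis) by day (x axis), as the median over windows (points) with quartiles (bars), for clustered Zfp, single Zfp and other promoters; right, the daily differences of the 10 Zfp windows with the largest mean fall or rise among those with the same sign on 4 days. On the left the medians as deposited are below 0 on days 4 and 5 and above 0 on days 6 and 7 for each kind, and after quantile normalization the Zfp median at day 7 is -0.46; on the right Zfp367 reaches the lowest mean, -37.8 points, and Zfp598 the highest, 20.4 points.

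The 19 Zfp genes without a window here were Zfp236, Zfp276, Zfp282, Zfp36l1, Zfp395, Zfp532, Zfp574, Zfp651, Zfp703, Zfp740, Zfp827, Zfp853, Zfp945, Zfp956, Zfp958, Zfp965, Zfp966, Zfp968 and Zfp969. The start of Zfp945 lay between windows, and the other 18 lacked a value in 1 or 2 libraries. Among members, window length ran from 1419 to 191743 bp and 13 windows were over 5 kb. The longest held the starts of both Zfp967 and Zfp973 on chromosome 2. Windows were drawn to hold 200 read positions, so a long window marks a stretch with few read positions, and its percentage is an average over a stretch far longer than a promoter.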

How the data were processed

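Per the labels, reads were made from formaldehyde-fixed, GpC methyltransferase-treated nuclei with a bisulfite sequencing kit, and per the submitters' notes bcl2fastq and Bismark were used with build mm10. The authors masked FVB and CAST variants, separated GpC from CpG cytosines, and deposited percent GpC methylation in windows of 200 read positions, with alleles merged. The study's methods name an enrichment normalisation, but medians of the deposited table differ between libraries. Versions of those tools are not given in the sources used here. Counts were not used here, so depth is unknown and no interval can be given; only 1 library represents each condition.

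Windows with a value in all 9 libraries were kept; 3318 autosomal windows (0.420%) lacked one. Starts came from GENCODE M21, and sequence from RefSeq GRCm38. The members and gene lists were chosen with earlier results of these data known. Named members were the role lists, the 5 highest and 5 lowest by mean percentile, the 5 largest mean rises and falls with 1 sign on 4 days, and the extremes of each run. Sequences end 29 rather than 49 bases after the start. Medians were compared with Python 3.11.15, numpy 2.4.6, pandas 2.3.3 and scipy 1.17.1, and windows were tested with limma 3.58.1 (R 4.3.3), tested on simulated data. The 1 pair of libraries per day gives no replicate, so limma's p-values rest on the spread between days, which are not biological repeats. Alternatives covered scaling, composition, window length, distance and left-out days.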

Additional observations from a re-analysis of the deposited data

Results flagged for a closer look

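As deposited, the difference between knockdown and Nons at Zfp windows had opposite signs on early and late days. Median knockdown minus Nons was -3.62 percentage points at day 4 and -4.00 at day 5, and 1.41 at day 6 and 1.91 at day 7 over the 361 windows. The difference between days was not tested, since each day has 1 pair of libraries. Windows with no gene start changed sign between the same days, from -2.77 and -1.01 to 1.50 and 0.654 points. After quantile normalization, which removes shifts of whole libraries, the Zfp medians were -0.54, -0.63, 0.15 and -0.46 points, so the values shrank on each day and day 6 alone was above 0.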

How the results depend on the processing

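The excess of Zfp windows over other promoters was above 0 in each library under every alternative run. At Nons day 7 it was 0.083 points for Zfp windows without another gene start, set against all other promoters, and 0.116 within CpG density bins. Its mean was 2.87 percentage points, and adding lncRNA starts to the comparison windows raised it to 4.51. Clustered minus single averaged -0.452 points and became 0.996 within GC bins and, chosen after seeing the data, 1.10 within CpG density bins. In both kinds of bins it was above 0 in 9 of 9 libraries. A cluster distance of 200 kb gave -1.64 (SD 0.959, below 0 in 9 of 9 libraries), and one of 50 kb 0.161. Windows without another gene start gave 0.754, comparison within chromosomes -1.31 and means over windows -0.99995. The Nons change relative to other promoters was -0.575 points (SD 0.969), and -0.14 (SD 0.046) as a difference of log2 ratios, also chosen after seeing the data. The knockdown difference relative to other promoters stayed within 1 SD over days of 0.199 points under each alternative run on the percent scale, and leaving out a day gave -0.123 to 0.446. Among daily medians, scalings chosen after seeing the data changed the sign 7 times. Under quantile normalization, knockdown minus Nons became -0.46 (all Zfp), -0.79 (clustered) and -0.11 (single) at day 7 and -0.30 (clustered) at day 6; centred on the autosomal median it became -0.15 (all Zfp) and -0.42 (clustered) at day 6, and clustered Nons minus day 0 became -0.027 at day 4. Limma called 0 windows under every alternative run, which says nothing about stability. The limma fit pairs the arms by day, and without the day block it also called 0. Depth per window is unknown, so windows with few reads could not be set apart from others.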
